A study of Mus musculus with 14 samples.

Results

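Synaptic vesicle and exocytosis genes were examined through 5 members, Nsf, Syp, Slc17a7, Syn1 and Syngr1, chosen by name from the 1380 genes that could be named on a spotted mouse cDNA array. The choice was made with earlier results of these data known. Each member has 1 probe, printed as 1 spot. The probes of Syp, Syn1 and Syngr1 carry a RefSeq mRNA accession, and those of Nsf and Slc17a7 carry an expressed sequence tag that RefSeq lists as a synonym of the gene. The series holds 14 such hybridisations in 2 colours. Per the labels, the mutants are male mice of genotype mir-34a minus on the C57BL/6 background, 17 weeks old, with 3 brains (6 arrays) and 4 thymi (8 arrays), and mice 1 to 3 gave both organs. For mice 3 and 4, the labels and the names of the deposited scanner files give identifiers with digits swapped. The labels were used, so the thymus values given for mice 3 and 4, and the pairing of mouse 3 across organs, rest on them. The second channel of every array carried RNA of the matching organ pooled from 4 male C57BL/6 mice of genotype control and the same age. The kind of allele, and whether it was made in all cells, is not given in the sources used here. Both RNAs of each mutant organ were hybridised on 2 arrays with the dyes exchanged. No control mouse was hybridised alone, so each test of mutant over pool rests on 1 control sample per organ, without the spread among control animals.

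Neurotransmitter is stored in synaptic vesicles, which are filled by transporters, held in reserve near the active zone and fused with the plasma membrane by SNARE proteins when calcium enters. Slc17a7 (VGLUT1) loads glutamate into vesicles of excitatory neurons. Syp (synaptophysin) and Syngr1 (synaptogyrin 1) span the vesicle membrane, and Syn1 (synapsin I) coats vesicles and ties them to the cytoskeleton. Nsf is the ATPase that takes spent SNARE complexes apart, in neurons and in other cells. The microRNA miR-34a is transcribed under control of p53 and lowers the levels of mRNAs that pair with its seed.

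The mature strands of the microRNA named in the genotype are shown with the seed, bases 2 to 8, in capitals. They come from RefSeq on GRCm38.p6. The 5p strand lies at chr4:150068473-150068494 and the 3p strand at chr4:150068517-150068537, both on the plus strand. No probe of the array was named Mir34a, so the genotype was not checked here.
mmu-miR-34a-5p: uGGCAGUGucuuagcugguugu
mmu-miR-34a-3p: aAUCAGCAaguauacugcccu

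Promoter windows of RefSeq on GRCm38.p6 (250 bases before to 50 after the start of the gene) are shown for Syp, the member whose spot was brighter in brain than in thymus, and for Slc17a7 and Syn1, whose spots gave thymus signal as well. Capitals mark matches to 4 motifs searched on both strands, TTCAGCACC (the left arm of RE1, the element bound by the neuronal repressor REST), TGACGTCA (the cyclic AMP response element), GGGCGG (the GC box) and CACGTG (an E-box). The Syp window lies at chrX:7638330-7638629 on the plus strand, the Slc17a7 window at chr7:45163671-45163970 on the plus strand and the Syn1 window at chrX:20920869-20921168 on the minus strand.
Syp: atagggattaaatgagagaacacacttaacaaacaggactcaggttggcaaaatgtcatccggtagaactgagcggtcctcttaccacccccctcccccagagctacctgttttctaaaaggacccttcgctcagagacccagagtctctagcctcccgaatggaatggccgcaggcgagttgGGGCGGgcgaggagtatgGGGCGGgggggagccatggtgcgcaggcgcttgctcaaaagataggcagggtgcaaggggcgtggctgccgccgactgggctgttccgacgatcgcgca
Slc17a7: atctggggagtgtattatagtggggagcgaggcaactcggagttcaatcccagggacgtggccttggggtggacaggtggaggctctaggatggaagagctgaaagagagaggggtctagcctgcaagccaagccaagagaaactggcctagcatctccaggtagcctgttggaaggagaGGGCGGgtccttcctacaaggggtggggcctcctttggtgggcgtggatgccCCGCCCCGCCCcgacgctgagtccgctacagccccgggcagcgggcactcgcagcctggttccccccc
Syn1: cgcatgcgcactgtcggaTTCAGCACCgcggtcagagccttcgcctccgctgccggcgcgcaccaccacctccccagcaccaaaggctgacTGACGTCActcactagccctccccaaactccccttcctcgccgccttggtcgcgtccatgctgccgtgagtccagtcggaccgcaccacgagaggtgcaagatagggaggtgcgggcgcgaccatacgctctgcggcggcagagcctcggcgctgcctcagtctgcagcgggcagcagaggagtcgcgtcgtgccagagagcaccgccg

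The Syn1 window held 1 RE1 left arm and 1 cyclic AMP response element. Of 32851 promoter windows of the same length, 0.371% held the first and 1.79% the second. No other member had a match to either. GC boxes, present in 35.7% of windows, occurred 2 times in Syp, 3 times in Slc17a7, with 2 of these sharing a base, and 1 time in Syngr1. The E-box, present in 7.15% of windows, occurred 1 time, in Nsf. A match is a string of letters in the window and no measured site.

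Signal limits what the array can show of these genes. Detection, meaning that either channel exceeded its background median by 2 background SDs or more, was met by 56.3% to 94.4% of probes on the brain arrays and by 7.96% to 85.4% on the thymus arrays, where replicate 8 was lowest and replicate 6 highest. Spots flagged in the files made up 0.812% to 10.7% of brain arrays and 9.32% to 72.4% of thymus arrays. Thymus replicate 1 is labelled brain in its tissue field and thymus in its title and pool, and was analysed as thymus. The labelled organs were compared on marker genes as means over mice, with all spots used. Such means cannot show which organ thymus replicate 1 holds. Of neuron markers, Stmn2 was 1.62 higher in brain on the log2 scale at its brighter probe (limma adjusted p = 0.002797) and Camk2b 1.16 higher (limma adjusted p = 0.03463). The other Stmn2 probe, at 0.72 (limma adjusted p = 0.1039), and Syt1, at 1.37 (limma adjusted p = 0.05425), were higher in brain but did not pass. Of thymocyte markers, Satb1 was lower in brain, at -1.69 (limma adjusted p = 0.00873), as was Cd8a, at -1.08 (limma adjusted p = 0.02192), while Cd4 was at -0.14 and did not pass (limma adjusted p = 0.6489). Camk2b was detected on 2 of 8 thymus arrays and Cd8a on 2 of 6 brain arrays. Each of these probes entered the test only through the organ where it was brighter, so its check is not independent of the filter. No tested marker of astrocytes, oligodendrocytes, microglia, endothelium or thymic epithelium passed in either direction.

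All 5 members were measured in brain, and none was called different between mutants and pool. Nsf, Syp and Slc17a7 each lay about 0.13 above the pool on the log2 scale and above 0 in 3 of 3 mice, while Syn1 and Syngr1 lay about 0.04 above it with mice on both sides of 0. limma called 0 of 17591 tested probes in brain (0% at an adjusted p of 0.05), and 783 had an unadjusted p under 0.05, which is 4.45%. The 3 members that were above 0 in every mouse compare with 14.8% of the 15608 probes measured in every mouse. The median of the 5 members was 0.13, against 9e-04 over all tested probes. Since the members were chosen with earlier results of these data known, setting them against all probes is a description and no test. Over all tested probes, the 95% interval reached 0.16 to either side of the estimate in the median, a distance larger than each member's mean. Of the members' own intervals, that of Nsf (0.0022 to 0.26) lay above 0 and the others included 0.

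Slc17a7, which fills vesicles with glutamate, had brain log2 ratios of mutant over pool of 0.11, 0.023 and 0.27 in mice 1 to 3. All 3 mutants lay above the pool, mouse 2 only just. The mean was 0.13 ± 0.12 (SD, n = 3), a 1.10-fold ratio with a 95% interval of 0.980 to 1.23, and it did not pass (limma adjusted p = 0.8455). Of all tested probes, 6.42% had a higher estimate.

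Syp, among the most abundant proteins of the vesicle membrane, had brain log2 ratios of 0.067, 0.16 and 0.16 in mice 1 to 3. The mutants lay close together, above the pool in each case. The mean was 0.13 ± 0.055 (SD, n = 3), a 1.09-fold ratio with an interval of 0.996 to 1.20 (limma adjusted p = 0.8455). Syngr1, a relative of synaptophysin with the same topology, gave -0.018, 0.25 and -0.10 in the same mice. One mutant lay above the pool and the others below it, for a mean of 0.044 ± 0.18 (SD, n = 3, limma adjusted p = 0.9284).

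Syn1, which holds the reserve pool of vesicles, gave brain log2 ratios of 0.21, -0.052 and -0.034 in mice 1 to 3. Only mouse 1 lay above the pool, and without it the mean turned to -0.043 and stayed uncalled. The Syn1 probe was detected on 3 of 6 brain arrays and on neither array of mouse 2, so the value of that mouse comes from spots below the detection limit. With all mice the mean was 0.042 ± 0.15 (SD, n = 3, limma adjusted p = 0.9214). Nsf, the SNARE-recycling ATPase, gave 0.099, 0.14 and 0.16, the narrowest spread of the 5 genes. Its mean of 0.13 ± 0.030 (SD, n = 3) is a 1.10-fold ratio with an interval of 1.002 to 1.20. Its unadjusted p of 0.04723 became an adjusted p of 0.8455 over all tested probes in limma.

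**Figure D1:**
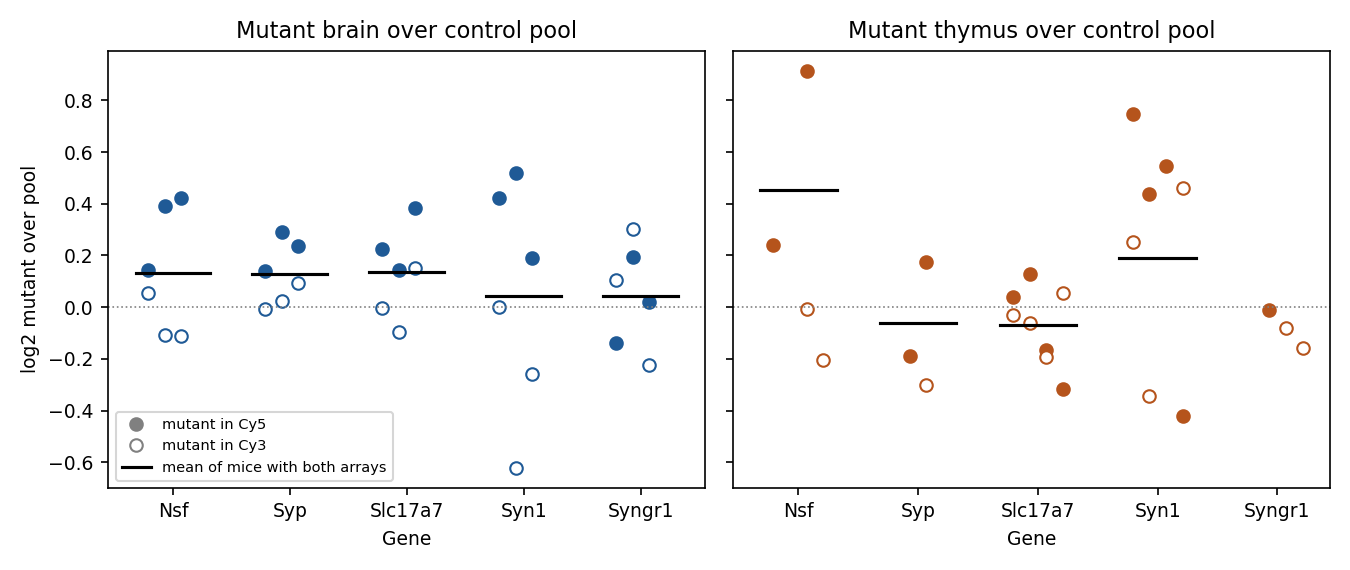
Log2 ratio of mutant over pool (vertical axis) for each gene (horizontal axis), 1 point per array with flagged spots left out, for mutant brain (left) and mutant thymus (right). Filled points have the mutant in Cy5, open points in Cy3, points are set from left to right by mouse, and black lines are means over mice with both arrays. In brain, the filled points lie above the open points of the same mouse for Nsf, Syp, Slc17a7 and Syn1.

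The brain ratios of 4 members were higher with the mutant in Cy5 than in Cy3 in every mouse. Of the 15608 probes measured in every mouse, 18.4% did so. With the mutant in Cy5, Nsf averaged 0.32 ± 0.15, and with the mutant in Cy3 it averaged -0.056 ± 0.094 (SD, n = 3 each). All 3 mice gave the higher ratio with the mutant in Cy5. Syn1 averaged 0.38 ± 0.17 with the mutant in Cy5 and -0.29 ± 0.31 with the mutant in Cy3 (SD, n = 3 each), again higher in Cy5 in all 3 mice. Slc17a7 averaged 0.25 ± 0.12 in Cy5 orientation and 0.017 ± 0.13 in Cy3 orientation, and Syp 0.22 ± 0.076 and 0.037 ± 0.052 in the same order (SD, n = 3 each). Both genes were higher with the mutant in Cy5 in all 3 mice. Syngr1 averaged 0.025 ± 0.17 and 0.062 ± 0.27 (SD, n = 3 each) and was higher in Cy5 in 1 of 3 mice.

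The part of the ratio that follows the dye was tested as the mean of Cy5 over Cy3 over both orientations, in which a genotype effect cancels. It was 0.34 ± 0.20 for Syn1, 0.19 ± 0.12 for Nsf, 0.12 ± 0.0031 for Slc17a7, 0.093 ± 0.036 for Syp and -0.019 ± 0.13 for Syngr1 (SD, n = 3 each). limma called 2 of 17591 probes (0.0114%), neither of them a member, and 2297 had an unadjusted p under 0.05 (13.1%). Syn1 came closest of the 5, with an unadjusted p of 0.01332 and an adjusted p of 0.28 in limma. Its dye difference exceeded its genotype mean of 0.042. It was 0.21, 0.57 and 0.22 in mice 1 to 3, with the highest value from mouse 2, where the probe was not detected on either array. Over all tested brain probes the median size was 0.054 for mutant over pool and 0.099 for the dye difference, and the dye difference was the larger in 69.1% of probes.

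**Figure D2:**
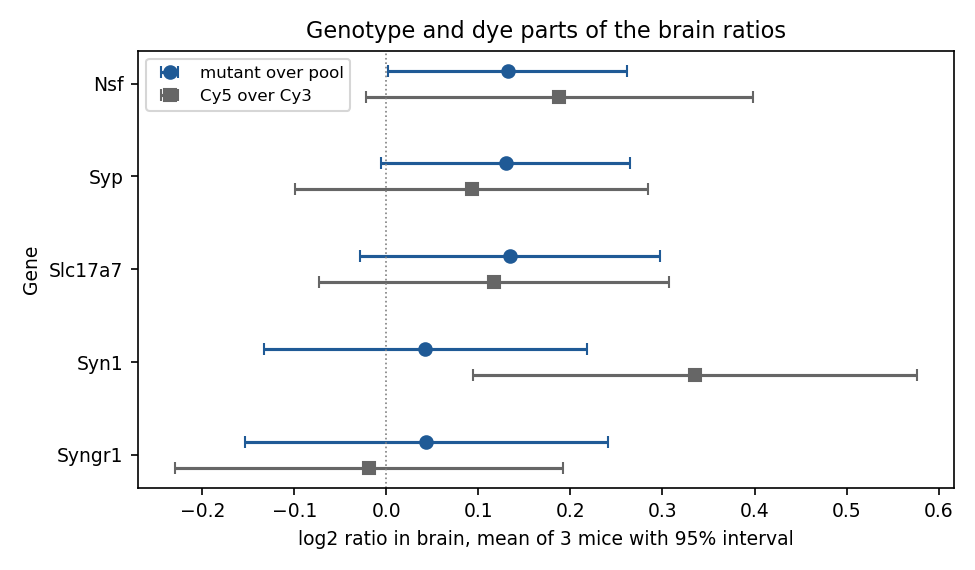
Mean log2 ratio in brain over 3 mice with its 95% interval from limma (horizontal axis) for each gene (vertical axis), with mutant over pool in blue circles and Cy5 over Cy3 in grey squares. The dye interval of Syn1 (0.094 to 0.58) and the genotype interval of Nsf (0.0022 to 0.26) lie above 0, and neither passed after adjustment.

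In thymus, Slc17a7 and Syn1 gave enough unflagged signal for a test, and neither differed from the pool by it. limma called 0 of 5422 probes (0%), and 273 had an unadjusted p under 0.05 (5.04%). Slc17a7 gave 0.0057, 0.034, -0.18 and -0.13 in mice 1 to 4. Mice 1 and 2 lay near 0 and mice 3 and 4 below it. The mean was -0.068 ± 0.10 (SD, n = 4, limma adjusted p = 0.8866), and it turned to 0.11 when arrays were centred on their median without loess.

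Syn1 in thymus gave 0.50, 0.047 and 0.019 in mice 1, 2 and 4, since 1 array of mouse 3 was flagged. All 3 values were above 0, with mouse 1 far above the others. The mean was 0.19 ± 0.27 (SD, n = 3, limma adjusted p = 0.8496). With flagged spots kept, mouse 3 gave 0.25, the mean was 0.20 ± 0.21 (SD, n = 4) and all 4 mice were above 0, as were 6.49% of probes measured in every mouse. That fit gave an adjusted p of 0.8397 in limma. Without thymus replicate 1, the array with labels of both organs, mouse 1 gave no value and the mean was 0.033 (limma adjusted p = 0.9695).

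The other 3 members could not be tested in thymus. Nsf had both arrays unflagged in mouse 3 alone, with a ratio of 0.45. That ratio averages 0.92 on replicate 5, where the probe was not detected, and -0.0083 on replicate 6. Syp had both unflagged in the same mouse, with -0.063, while Syngr1 had none. With flagged spots kept, Nsf averaged 0.21 ± 0.17 (SD, n = 4), above 0 in 4 of 4 thymi, with 4 of 8 spots flagged. Syngr1 then averaged -0.090 ± 0.16 (SD, n = 4), above 0 in 1 of 4. The difference of the ratios between organs was tested for Slc17a7 and Syn1. For Slc17a7 brain minus thymus was 0.20, from 0.13 in brain and -0.068 in thymus (limma adjusted p = 0.688). For Syn1 it was -0.15, from 0.042 in brain and 0.19 in thymus (limma adjusted p = 0.7985). Without the thymus of mouse 1 the Syn1 difference was 0.0090 (limma adjusted p = 0.9897). limma called 0 of 5255 probes (0%), and 365 had an unadjusted p under 0.05 (6.95%).

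Spot intensity, the mean log2 signal of both channels after quantile normalisation, compares the organs for the same spot. It pools mutant and control RNA. Since these are bulk organs, fewer cells of a type and less RNA per cell cannot be told apart. Syp was the 1 member whose spot was brighter in brain by the test, and it was so where flagged spots were kept, since most of its thymus spots were flagged. With flagged spots left out, Slc17a7 and Syn1 alone could be tested, and limma called 218 of 8384 probes (2.6%). With all spots, it called 329 of 18161 probes (1.81%), of which 239 were higher in brain (1.32%) and 90 lower.

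Syp had intensities of 6.79, 7.64 and 7.56 in brain of mice 1 to 3, against 5.93, 6.07, 6.56 and 6.16 in thymus of mice 1 to 4. Every brain value exceeded every thymus value, as it did for 9.04% of tested probes. The means were 7.33 ± 0.47 in brain (SD, n = 3) and 6.18 ± 0.27 in thymus (SD, n = 4), a difference of 1.15 (limma adjusted p = 0.03943). The probe entered the test through its brain arrays. In thymus it was detected on 1 of 8 arrays and flagged on 5. The thymus mean thus comes mostly from spots below the detection limit, and the size of the difference is uncertain. The call rests on few mice. The difference was 0.96 without mouse 2 (limma adjusted p = 0.3082), 1.17 without mouse 3 (limma adjusted p = 0.1089) and 1.15 without mouse 4 (limma adjusted p = 0.08436). It was 1.07 without both thymus arrays of mouse 1, replicate 1 among them (limma adjusted p = 0.1053). With mouse as a block over the mice that gave both organs it was 1.15 (limma adjusted p = 0.09606). Scaling arrays by their median in place of quantiles gave 1.20 (limma adjusted p = 0.05433). The call was kept without mouse 1, at 1.34 (limma adjusted p = 0.04008), and without the thymus of mouse 3, at 1.28 (limma adjusted p = 0.03856).

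Scanner values before normalisation follow the brightness of the whole array, and thymus arrays were dimmer in Cy5. The array-wide median of foreground over background in Cy5 was 1.45 to 2.36 on brain and 1.10 to 1.70 on thymus arrays, and in Cy3 1.81 to 2.25 on brain and 1.21 to 2.67 on thymus arrays. Foreground over background at the Syp spot was 2.20 at the lowest, 2.98 in the median and 4.81 at the highest in the mutant channel of the 6 brain arrays, and 1.93, 2.51 and 5.87 in the pool channel. On the 8 thymus arrays it was 1.07, 1.15 and 2.49 in the mutant channel and 1.05, 1.26 and 1.91 in the pool channel. Syp was detected on 6 of 6 brain arrays and on 1 of 8 thymus arrays, replicate 6, which has the highest share of detected probes of its organ. On that array the mutant channel was 2.49 times and the pool channel 1.91 times its background, within the brain range for the mutant and just below it for the pool. Set against the median of its own array and channel, Syp was above it in both channels on 5 of 6 brain arrays and on 0 of 8 thymus arrays, and above it in neither on 1 brain and 6 thymus arrays. Slc17a7 was above the array median in both channels on 6 of 6 brain and 8 of 8 thymus arrays. In the same order, Nsf was so on 3 of 6 and 3 of 8, Syn1 on 1 of 6 and 6 of 8, and Syngr1 on 0 of 6 and 3 of 8. Of the neuron markers with a probe, 3 of 3 genes were brighter in brain in estimate, and their part in the Syp difference was not tested.

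**Figure D3:**
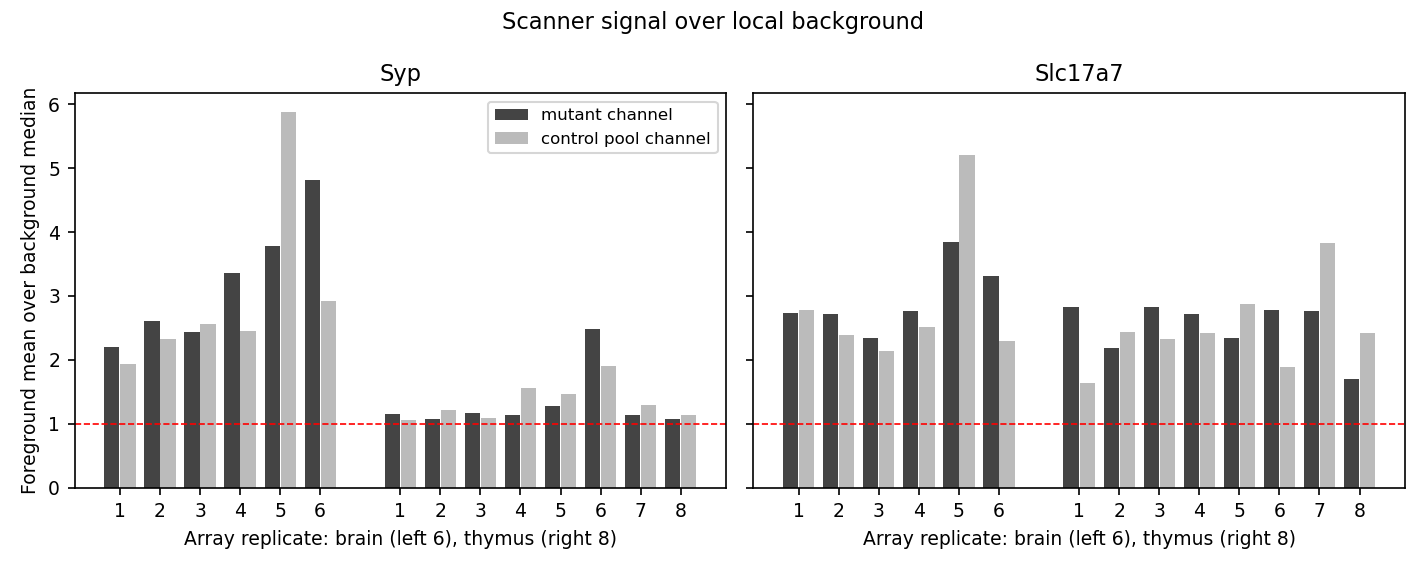
Foreground mean over local background median (vertical axis) for Syp (left) and Slc17a7 (right) on each of the 6 brain and 8 thymus arrays (horizontal axis), with the mutant channel as dark and the pool channel as light bars, and the background level as a dashed line at 1. Syp stands above background on every brain array and near it on all thymus arrays but replicate 6, while Slc17a7 stands above background in both organs.

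Slc17a7 and Syn1, both known as neuronal genes, gave thymus signal at least as often as brain signal. Slc17a7 was detected on 6 of 6 brain arrays and on 8 of 8 thymus arrays. With all spots its intensities were 7.19, 7.51 and 7.41 in brain of mice 1 to 3, against 7.91, 7.88, 7.35 and 7.71 in thymus of mice 1 to 4. The organs overlapped through thymus of mouse 3. The difference was -0.34, from 7.37 ± 0.16 in brain (SD, n = 3) and 7.71 ± 0.26 in thymus (SD, n = 4), and did not pass (limma adjusted p = 0.3439). With flagged spots left out it was -0.063 (limma adjusted p = 0.8879), with a 95% interval of -0.46 to 0.33. Median scaling turned it to 0.16. Thymus replicate 6 was the dimmest for Slc17a7. With all spots and without both thymus arrays of that mouse, mouse 3, the difference was -0.46 (limma adjusted p = 0.2038). Whether the probe, which was named by a synonym, reports Slc17a7 mRNA in either organ was not tested.

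Syn1 was detected on 3 of 6 brain arrays and on 6 of 8 thymus arrays. With all spots its intensities were 6.02, 6.29 and 6.67 in brain of mice 1 to 3, against 6.97, 7.33, 6.65 and 7.02 in thymus of mice 1 to 4. Brain lay below thymus apart from an overlap at mouse 3. The difference was -0.67, from 6.33 ± 0.33 in brain (SD, n = 3) and 6.99 ± 0.28 in thymus (SD, n = 4). Its unadjusted p was 0.008839 and its adjusted p 0.1409 in limma, in a comparison where 17.4% of probes had an unadjusted p under 0.05. It kept its sign under all alternatives run, from -0.95 to -0.30, and whether the probe reports Syn1 mRNA in thymus was not tested.

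Nsf and Syngr1 did not separate the organs. Nsf, a gene of general membrane traffic, was detected on 5 of 6 brain and 3 of 8 thymus arrays. Its intensities were 6.46, 6.75 and 6.94 in brain of mice 1 to 3, against 6.48, 5.92, 6.55 and 6.32 in thymus of mice 1 to 4, with an overlap at mouse 1. The difference was 0.40 (limma adjusted p = 0.3126). Syngr1 was detected on 5 of 6 brain and 2 of 8 thymus arrays. Its intensities were 6.31, 6.27 and 6.47 in brain, against 6.13, 6.56, 6.68 and 6.28 in thymus, ranges that lay over each other. The difference was -0.060, with a 95% interval of -0.43 to 0.31 (limma adjusted p = 0.8847).

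**Figure D4:**
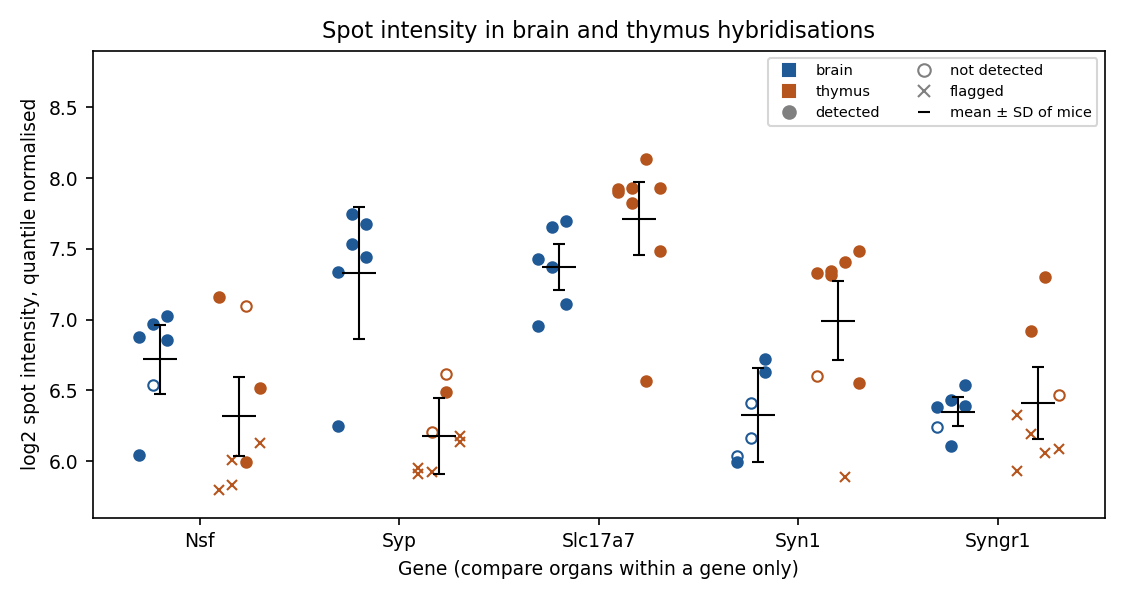
Quantile-normalised log2 spot intensity, mean of both channels (vertical axis), of each gene (horizontal axis) on brain arrays (blue, left of each pair) and thymus arrays (orange, right). Filled circles are detected, open circles not detected and crosses flagged, and black marks give mean ± SD over mice with all spots. Syp, the gene called by the test, has means of 7.33 in brain and 6.18 in thymus, with all but 1 of its thymus points flagged or not detected, and brain replicate 1 is its low brain point.

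Other genes of the vesicle cycle with a probe numbered 16, and none of those tested was called for mutant over pool in either organ. Of the SNARE machinery and its regulators, 6 of 53 listed genes had a probe, the member Nsf among them, and 5 were tested in brain. With Nsf counted, at 0.13, 3 lay above 0 and 2 below, with a median of 0.018, where 50.5% of all tested brain probes lay above 0. Syt1, the calcium sensor of fast release, was at 0.024 ± 0.064 in brain (SD, n = 3, limma adjusted p = 0.9442), and Stx12, a syntaxin of endosomes, at 0.018 ± 0.063 (SD, n = 3, limma adjusted p = 0.9574). Vesicle membrane proteins and transporters had 5 of 34 listed genes on the array, 4 of them members, and 4 of 5 lay above 0 in brain with a median of 0.044. Endocytosis genes had 3 tested, all above 0, with a median of 0.084. Among them Sh3gl3 and Sh3gl2, endophilins that act as vesicles are retrieved, were at 0.14 ± 0.050 and 0.053 ± 0.057 (SD, n = 3 each).

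Of active zone genes, Ppfia4 (a liprin) was at 0.18 ± 0.24 and Cacna1b (the pore of the N-type calcium channel) at -0.023 ± 0.060 in brain (SD, n = 3 each). Of the synucleins, Sncb was at 0.077 ± 0.023 and Sncg at -0.010 ± 0.18 (SD, n = 3 each). Exoc6, a subunit of the exocyst, was at 0.55 ± 0.91 (SD, n = 3), a spread larger than its mean. The granule proteins Scg3 and Chga were at -0.0070 ± 0.12 and 0.079 ± 0.020 (SD, n = 3 each). No gene of the vesicular proton pump list had a named probe. The adjusted p of these genes in brain was 0.8455 or above in limma.

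Between organs and with all spots, 2 of the 20 tested genes of the vesicle lists passed, Syp and Scg3, in a comparison that called 1.81% of all probes. The Syp call was lost with mouse as a block (limma adjusted p = 0.09606). Scg3, which sorts granule cargo, had an intensity of 7.57 ± 0.33 in brain (SD, n = 3) and 6.64 ± 0.18 in thymus (SD, n = 4). The difference was 0.92 (limma adjusted p = 0.03837). Scg3 was detected on 6 of 6 brain and 3 of 8 thymus arrays, so it entered the test through its brain arrays alone, as Syp did. Its call is given here without alternatives. Syt1 had 7.93 ± 0.42 (SD, n = 3) in brain and 6.56 ± 0.55 (SD, n = 4) in thymus and missed the threshold (limma adjusted p = 0.05425). Syt1 was detected on 6 of 6 brain and 2 of 8 thymus arrays. Its thymus mean, like that of Syp and Scg3, thus comes mostly from spots below the detection limit. Sncb, also a gene of synapses, had 7.23 ± 0.21 (SD, n = 3) in brain and 7.36 ± 0.24 (SD, n = 4) in thymus and did not pass (limma adjusted p = 0.7555).

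The genes whose intensity followed a member most closely over the arrays were found for 3 members. For Nsf these were Tspyl1 (r = 0.921) and Hsp90b1 (r = 0.916) over 10 arrays, among 389 named genes. For Slc17a7 they were G3bp1 (r = 0.885) and Ddx5 (r = 0.859) over 14 arrays, among 990 genes. For Syn1 they were E2f4 (r = 0.899) and Mau2 (r = 0.867) over 10 arrays, among 763 genes. Syp and Syngr1 had unflagged spots on 9 arrays and none was named. The points share arrays, mice and overall signal, and the correlations are descriptions.

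The brain ratios of the 5 genes were compared across the alternative ways of processing. Syp ranged from 0.037 to 0.31 and Slc17a7 from 0.017 to 0.28, above 0 under all 14 alternatives. Nsf ranged from -0.056 to 0.32 and was above 0 under 12 of 13, the exception being arrays with the mutant in Cy3. Syn1 ranged from -0.29 to 0.47 and was above 0 under 10 of 12. Syngr1 ranged from -0.060 to 0.16 and was above 0 under 12 of 13. The deposited table of the authors, centred per array, gave the highest values for Nsf, Slc17a7, Syn1, Syp and Syngr1, and no brain ratio of a member was called under any alternative.

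**Figure D5:**
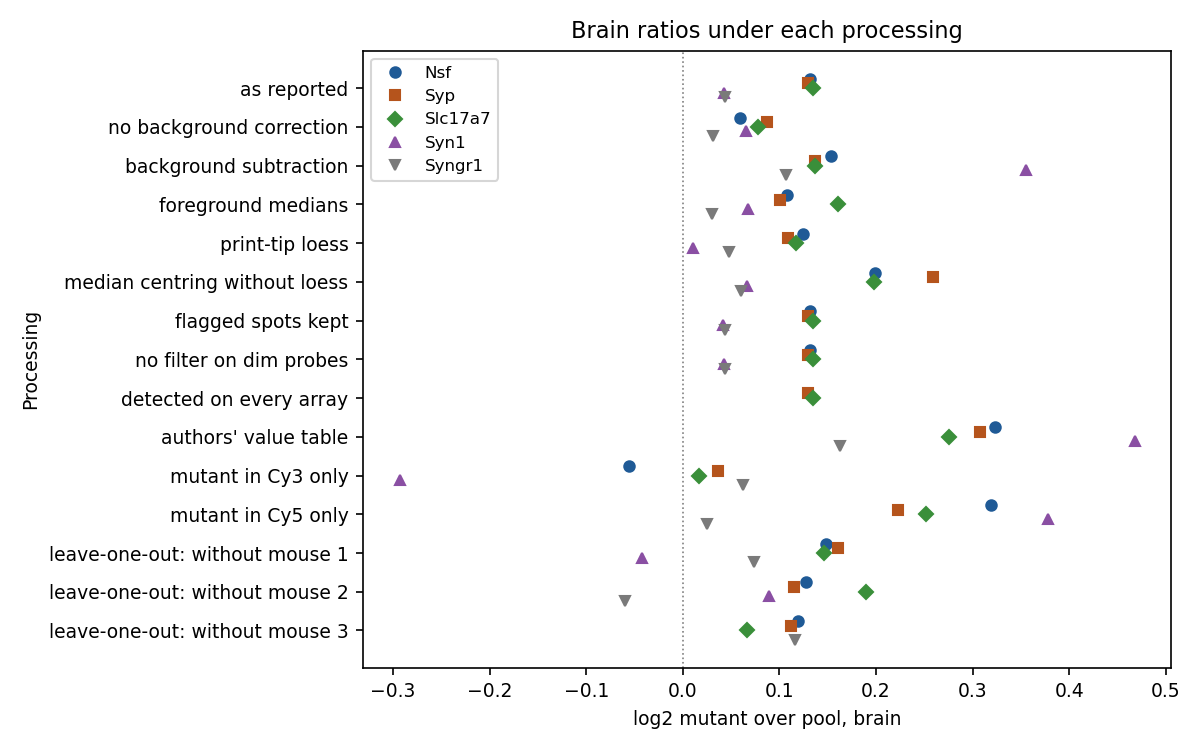
Log2 ratio of mutant over pool in brain (horizontal axis) for each processing (vertical axis), 1 symbol per gene, with the values as reported in the top row. Nsf, Syp and Slc17a7 stay between 0 and 0.33 except for Nsf at -0.056 with the mutant in Cy3, and Syn1 moves most, from -0.29 to 0.47.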

How the data were processed

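Scanner files deposited by the authors give, per the file headers, spot and local background intensity in a red scan (Cy5) and a green scan (Cy3), not normalised. A deposited value table, held here as a score, was compared with the log2 ratio of mutant over pool of background-subtracted medians. It equals that ratio within 0.01, plus a constant of unknown origin, for 99.7% to 99.9% of the rows compared. These had medians above background in both channels and numbered 14811 to 20157 per array, of 20205 spots. The column medians of the table run from -1.38 to 0.865, so it was centred and used only as an alternative. The labels' protocols name a reverse-transcription labelling with Cy3 or Cy5, and the number of control animals differs between label fields. The scanner is not given in the sources used here.

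Spot means received normexp correction (offset 50) and loess normalisation (span 0.3) within each array in limma 3.58.1 under R 4.3.3, with flagged spots left out. Ratios were turned to mutant over pool, and a mouse value needed both its arrays. A probe was tested in an organ if it was detected on 0.5 or more of the arrays, with values from at least 2 mice. Mouse values were tested with lmFit and eBayes, and p-values were adjusted by Benjamini-Hochberg over all probes tested, at a threshold of 0.05. Of 20160 probes, 961 were named by RefSeq accession and 492 by synonym. Named genes were the 5 members, up to 3 genes of each list with the highest mean intensity, and the 2 genes most like a member over at least 10 arrays. Members and lists were chosen with earlier results of these data known. Mice 1 to 3 gave both organs, so the labels pair them, and their deviations correlated at -0.00173, -0.0122 and 0.00648. No 2 arrays were identical. Setting a spot against its array's median was chosen after seeing the data. The offset shrinks the ratios of dim spots, and the number of mice limits the precision. The procedure was also run on the scanner data with known fold changes put into the signal of some probes. The share of these that was called is not given here. Figures used matplotlib 3.10.9 under Python 3.11.15.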

Additional observations from a re-analysis of the deposited data

Results flagged for a closer look

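Of 24 groups of arrays examined, 2 held an array apart from its group, and chance alone marks about 1 group in 20. On brain replicate 1 the Syp intensity with all spots was 6.25, against 7.34 for the nearest other brain array, a gap of 0.726 of the whole range. On thymus replicate 6 the Slc17a7 intensity was 6.57, against 7.49 for the nearest other thymus array, a gap of 0.588 of the range.

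With flagged spots kept, the Syp ratio of mutant over pool lay above 0 in 3 of 3 brains, with a mean of 0.13 ± 0.054 (SD, n = 3), and below 0 in 4 of 4 thymi, with a mean of -0.080 ± 0.056 (SD, n = 4). The difference was not tested, because Syp was detected on 1 of 8 thymus arrays, and 5 of the 8 spots were flagged.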

How the results depend on the processing

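The thymus count of mutant over pool stayed at 0 under all 17 alternatives. The brain count became 1 with foreground medians and 1 with the mutant in Cy5 only, and the count for the difference of ratios became 1 with foreground medians; no member was among these. The intensity count moved from 218 to 329 with flagged spots kept, to 44 with mouse as a replicate block and to 110 without the thymus of mouse 1. Leaving out 1 mouse, in both organs or in thymus alone, gave 46 to 172. With flagged spots kept the count was 126 without the thymus of mouse 1, 26 with mouse as a replicate block, and 115, 14 and 47 without mouse 1, 2 and 3. Mice left out gave 1 to 5 calls for the brain dye difference and up to 2 for the thymus dye difference. Fewer samples entered the fits that left out a mouse or its thymus or used the block. More probes (18161 against 8384) entered the fit with flagged spots kept. For foreground medians and the Cy5 orientation the cause was not tested.

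Of the members' values, 205 kept sign and side of the threshold, 18 turned sign without passing and 6 lost a call, all 6 for the Syp intensity. Slc17a7 in thymus turned to 0.11 with median centring and 0.20 in the authors' deposited table. Its thymus dye difference turned to 0.039 without background correction and 0.047 without mouse 4, and its intensity difference to 0.076 without mouse 1, 0.16 with median scaling and 0.023 in the mutant channel. Syn1 turned in brain to -0.29 with the mutant in Cy3 and -0.043 without mouse 1. In the organ difference it turned to 0.31 in the authors' deposited table and 0.0090 without the thymus of mouse 1. Its thymus dye difference turned to -0.024 without mouse 1 and -0.096 without mouse 2. Nsf in brain turned to -0.056 with the mutant in Cy3. Syngr1 turned in brain to -0.060 without mouse 2 and in its dye difference to 0.034 without mouse 1. Its intensity difference turned to 0.030 without the thymus of mouse 3 and 0.029 without mouse 2. Over the mice left out, Syn1 reached 0.089 in brain, -0.23 in the organ difference and 0.32 in its thymus dye difference at the other end of the range. Syngr1 reached 0.12 in brain and -0.088 in its dye difference, and Slc17a7 -0.21 in intensity and -0.045 in its thymus dye difference. The mouse block changed no other call of a member than that of Syp. Dim thymus signal leaves Nsf, Syp and Syngr1 untested there.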
